A study of Mus musculus with 6 samples.

Results

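The 9 genes described here encode chemokine receptors and CXC chemokines, and they were chosen by name. They are the receptor genes Ccr1, Ccr2, Cx3cr1 and Cxcr4, the atypical receptor gene Ackr3, and the ligand genes Cxcl1, Cxcl10, Cxcl12 and Cxcl16. Each was found once by its Ensembl identifier among the 35122 genes of the count table, and all 9 had enough counts to be tested. RNA was taken from adipocytes that floated after epididymal fat had been digested with collagenase, in 6 male C57BL/6 mice, 3 per group and 1 library per mouse. Both groups carried PU.1 fl/fl, in which loxP sites flank a single exon of Spi1, the gene for the transcription factor PU.1, in every cell. The control mice had no Cre, and the study describes them as littermates. The knockout mice (AdipoqCre PU.1 fl/fl, called aPU.1KO) also carried Cre driven by the adiponectin promoter, which is active in adipocytes, so that other cells of the fat pad kept the floxed exon. All mice were fed chow and no other treatment is given, and their age is 10 to 11 months by the sample labels, although the study's text puts the sequenced mice above a year. The question is how chemokine and receptor genes differ in adipocyte RNA when adipocyte PU.1 is targeted.

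Chemokines are small secreted proteins that draw leukocytes along a gradient by binding G protein-coupled receptors on their surface. CC and CXC chemokines differ in the spacing of the first cysteines of the protein, and among CXC chemokines Cxcl1 attracts neutrophils through Cxcr2, Cxcl10 attracts activated T cells through Cxcr3, and Cxcl12 retains and guides many cell types through Cxcr4. Ccr2, with its ligand Ccl2, brings monocytes into obese fat, where they become macrophages. Atypical receptors such as Ackr3 bind chemokine and remove it without the usual G protein signal.

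Total counts were between 20550252 and 24310144 in 5 of the libraries and 69283842 in control mouse 1. Levels are given as CPM (counts scaled to a common library size of 1e+06) after TMM scaling, a scaling of library sizes that balances most genes between libraries. Spi1 had 24.3, 6.35 and 26.7 CPM in control mice 1, 2 and 3 and 3.20, 1.22 and 4.17 CPM in the aPU.1KO mice, a log2 fold change of -2.75 (edgeR adjusted p = 0.0788), although reads from its unfloxed exons are counted in both groups. Adipocyte markers were abundant in every mouse, where the 7 genes of that list summed to between 24944.0 and 32181.8 CPM. Other cells were present as well. The 12 macrophage markers summed to 1523.0, 470.4 and 1470.7 CPM in the control mice and to 333.0, 249.3 and 310.5 CPM in the aPU.1KO mice, so that control mouse 2 stood nearer to the aPU.1KO mice than to the other controls. In RNA of a mixed fraction, fewer cells of a type and less RNA per cell cannot be told apart.

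Upstream sequence of 4 of the genes is shown because they stand for the patterns described below: the largest difference among the lower genes (Ccr1), the ligands that varied most among aPU.1KO mice (Cxcl1 and Cxcl10), and the most abundant ligand that was lower in every aPU.1KO mouse (Cxcl12). Each run is the 250 bases before the RefSeq start site, 5′ to 3′ on the strand of the gene, in GRCm38.p6. The windows are chr9:123968693-123968942 on the minus strand for Ccr1, chr5:90890995-90891244 on the plus strand for Cxcl1, chr5:92348890-92349139 on the minus strand for Cxcl10 and chr6:117168285-117168534 on the plus strand for Cxcl12. Capitals mark matches, on either strand, to GAGGAA (the PU box bound by PU.1), GGGNNTTNC (a shortened NF-kB site) and GAAANNGAA (a shortened interferon response element).
Ccr1: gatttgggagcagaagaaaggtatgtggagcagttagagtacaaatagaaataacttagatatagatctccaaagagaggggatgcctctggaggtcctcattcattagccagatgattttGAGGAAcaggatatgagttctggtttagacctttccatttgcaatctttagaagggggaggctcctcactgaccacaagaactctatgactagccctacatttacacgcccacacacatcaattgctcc
Cxcl1: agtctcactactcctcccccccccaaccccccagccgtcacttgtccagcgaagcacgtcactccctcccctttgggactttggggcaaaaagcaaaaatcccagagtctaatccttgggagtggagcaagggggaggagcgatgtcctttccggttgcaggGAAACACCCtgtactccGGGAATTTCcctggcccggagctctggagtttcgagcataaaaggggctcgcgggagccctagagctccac
Cxcl10: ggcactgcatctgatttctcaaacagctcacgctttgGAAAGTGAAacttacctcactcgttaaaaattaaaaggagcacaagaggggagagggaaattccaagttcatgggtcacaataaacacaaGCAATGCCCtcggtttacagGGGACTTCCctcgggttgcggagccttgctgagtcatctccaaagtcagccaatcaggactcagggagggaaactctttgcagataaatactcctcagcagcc
Cxcl12: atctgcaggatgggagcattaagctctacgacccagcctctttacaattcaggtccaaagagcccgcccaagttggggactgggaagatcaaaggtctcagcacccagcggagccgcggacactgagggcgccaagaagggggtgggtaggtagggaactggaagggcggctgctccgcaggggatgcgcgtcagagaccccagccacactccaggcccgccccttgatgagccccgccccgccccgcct

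The letters GAGGAA were found in the window of 1 of the 8 members with a RefSeq entry, Ccr1, at 129 to 124 bases before the start, and in 23.3% of all 32851 RefSeq promoter windows of this length. GGGNNTTNC matched Cxcl1 at 2 places, 88 to 80 and 71 to 63 bases before the start, and Cxcl10 at 2 places, 123 to 115 and 103 to 95 bases before it. Cx3cr1 and Cxcr4 held 1 match each, and 13% of all windows held one. GAAANNGAA matched Cxcl10 at 213 to 205 and Ccr2 at 86 to 78 bases before the start, against 7.13% of all windows. The windows also differ in base composition. Ccr1 and Ccr2 have a GC content of 43.6% and 37.2% with 1 CpG each, and Cxcr4 and Cxcl12 have 61.2% and 64.4% with 19 and 14 CpG, where the medians over all windows are 52.4% and 6 CpG. No binding data were used here, and a match is a description of the letters.

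Of the 9 genes, 7 had lower fitted levels in aPU.1KO adipocytes and 2, Cxcl1 and Cxcl10, had higher ones. When edgeR's quasi-likelihood p-values were adjusted over 13925 genes by Benjamini-Hochberg, 0 of the 9 passed an adjusted p of 0.05, a threshold that 0.237% of all genes tested passed in either direction. At an unadjusted p under 0.05, 7 were lower (13.7% of all genes tested) and 1, Cxcl10, was higher (11.9% of all genes tested). Without control mouse 1 the number at an unadjusted p under 0.05 was 5 instead of 8, while the share of all genes under it, in either direction, was 12.3% instead of 25.7%. Without control mouse 2, 5 of the 9 (Ccr1, Cx3cr1, Cxcr4, Cxcl12 and Cxcl16) passed the adjusted threshold, as did 1193 genes in all instead of 33. DESeq2, the tool of the study's methods, called 7 of the 9 at an adjusted p under 0.05, all lower, where it called 11.6% of the genes that received an adjusted p. At the same threshold limma-voom called 0 of the 9 and 46 of all 13925 genes. In 6 of the genes, Ccr1, Ccr2, Cx3cr1, Cxcr4, Ackr3 and Cxcl12, the highest aPU.1KO value was under the lowest control value (15.5% of all genes tested). In none of the 9 did every aPU.1KO mouse lie above every control mouse (16.7% of all genes tested), and Cxcl1, Cxcl10 and Cxcl16 overlapped between groups. The median log2 fold change was -1.25 over the 9 genes and 0.01 over all genes tested. With 3 mice per group, an exact two-sided permutation test of a single gene cannot give a p below 0.1.

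**Figure D1:**
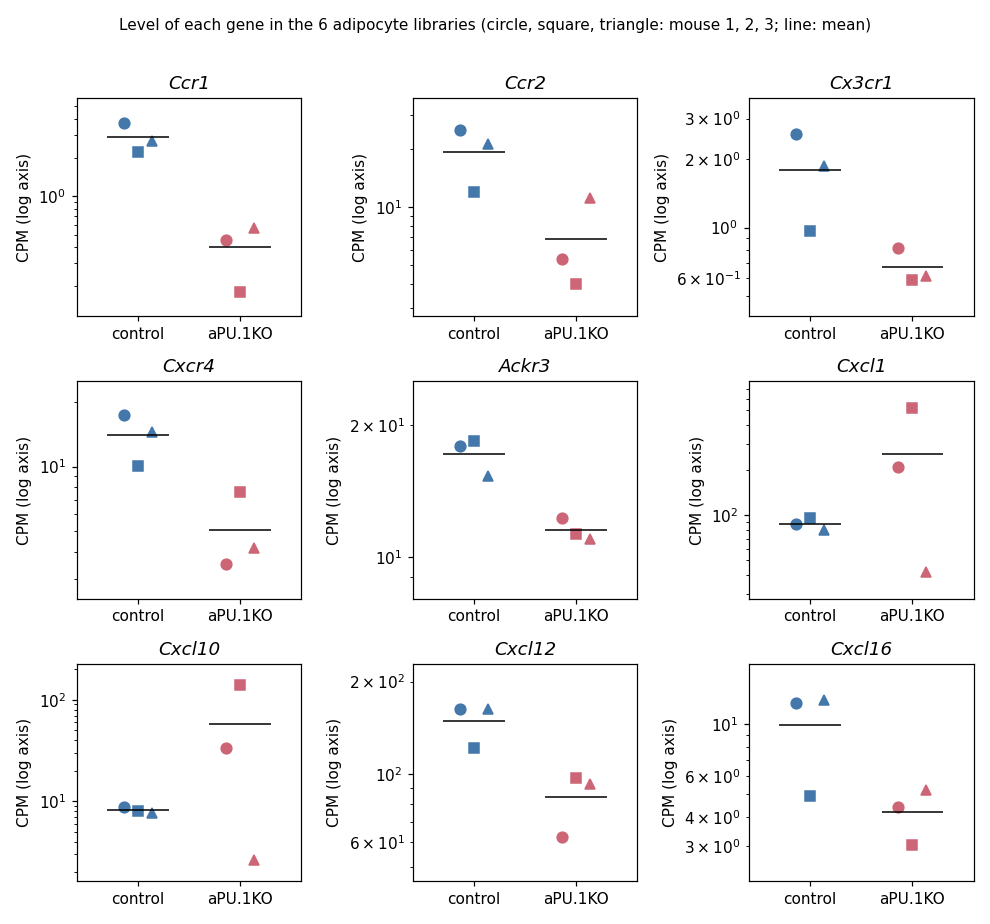
Level of each of the 9 genes in CPM on a log axis, with control mice in blue and aPU.1KO mice in red. Circles, squares and triangles are mice 1, 2 and 3 of a group and lines are group means. In Ccr1, Ccr2, Cx3cr1, Cxcr4, Ackr3 and Cxcl12 the red points lie below the blue ones, and in Cxcl1 and Cxcl10 aPU.1KO mouse 2 is highest and aPU.1KO mouse 3 lowest.

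Ccr1 is a receptor of monocytes, macrophages and neutrophils for Ccl3, Ccl5 and related ligands. The gene (ENSMUSG00000025804; chromosome 9, 123962124 to 123968692, minus strand, GRCm38) was counted at 3.72, 2.23 and 2.70 CPM in the control mice and 0.457, 0.181 and 0.568 CPM in the aPU.1KO mice. Its difference was the largest of the 9, just ahead of Cxcl10, at -2.85 on the log2 scale (SE, the standard error, 0.43; adjusted p = 0.0718 by edgeR) and means that differed 7.17-fold. The groups were far apart relative to their spread, but the aPU.1KO values rest on 9, 4 and 12 counts. With 1 mouse left out at a time the log2 fold change stayed between -3.19 and -2.50, and the adjusted p was 0.0167 without control mouse 2 and 0.313 without control mouse 1.

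Ccr2 lies near Ccr1 on the same chromosome (124101950 to 124113557, plus strand) and encodes the receptor for Ccl2, Ccl7 and Ccl12. Its levels were 24.9, 12.0 and 21.1 CPM in control mice and 5.39, 3.98 and 11.1 CPM in aPU.1KO mice. The gap between groups was narrow, since aPU.1KO mouse 3 at 11.1 CPM stood just below control mouse 2 at 12.0 CPM. The difference was -1.51 on the log2 scale (SE 0.43, edgeR adjusted p = 0.102), and it ran from -2.05 without aPU.1KO mouse 3 to -1.24 without aPU.1KO mouse 2. DESeq2 gave an adjusted p of 0.00574.

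Cx3cr1 is the receptor for fractalkine (Cx3cl1) and is found on monocytes and resident macrophages. The gene (chromosome 9, 119901616 to 120069879) had the lowest level of the 9 in control mice, at 2.56, 0.963 and 1.86 CPM in the control mice and 0.813, 0.588 and 0.616 CPM in the aPU.1KO mice. The aPU.1KO mice were close to one another and control mouse 2 was close to them. On the log2 scale aPU.1KO minus control was -1.44 (SE 0.42, edgeR adjusted p = 0.105), from 22 to 186 counts per control library and 13 to 16 per aPU.1KO library. Its DESeq2 adjusted p was 0.0402, and edgeR's was 0.0307 without control mouse 2. Without control mouse 1 the log2 difference was -1.09, with an unadjusted p of 0.0612 and an adjusted p of 0.419 by edgeR.

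Cxcr4, the signaling receptor for Cxcl12, is made by most leukocytes and by endothelial and progenitor cells. It was counted at 17.3, 10.1 and 14.5 CPM in control mice and 3.51, 7.59 and 4.17 CPM in aPU.1KO mice (chromosome 1, 128588199 to 128592293). The highest aPU.1KO mouse was mouse 2, which was the lowest of its group for Ccr1, Ccr2 and Cx3cr1. The fitted change of Cxcr4 was -1.46 on the log2 scale (SE 0.34, edgeR adjusted p = 0.0786; 0.000647 by DESeq2), and it was -1.87 without aPU.1KO mouse 2.

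Ackr3, the atypical receptor that takes up Cxcl12, had the smallest difference of the 9 and the smallest standard error of it. Its levels were 17.9, 18.4 and 15.3 CPM in the control mice and 12.3, 11.3 and 11.0 CPM in the aPU.1KO mice (chromosome 1, 90203980 to 90216751). Both groups were tight and did not overlap, and control mouse 2 was the highest of the controls. For Ackr3 the log2 difference came to -0.58 (SE 0.12, edgeR adjusted p = 0.0764; 0.00176 by DESeq2), with -0.66 and -0.54 as the extremes when single mice were left out.

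Cxcl12, the shared ligand of Cxcr4 and Ackr3, was the second most abundant of the 9 in control mice per length of transcript. It was counted at 162.8, 121.5 and 163.5 CPM in the control mice and 62.6, 96.9 and 93.0 CPM in the aPU.1KO mice (chromosome 6, 117168535 to 117181367). All aPU.1KO mice were below all controls, and aPU.1KO mouse 1 was the lowest. The log2 difference of Cxcl12 was -0.83 (SE 0.20, edgeR adjusted p = 0.0803; 0.00197 by DESeq2). The ligand and both of its receptors were therefore lower in every aPU.1KO mouse, Cxcr4 by 2.75-fold, Cxcl12 by 1.77-fold and Ackr3 by 1.49-fold in the means.

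Cxcl16 is a membrane-bound CXC chemokine that is shed by the protease Adam10 and binds Cxcr6, and it also acts as a scavenger receptor for oxidized lipoprotein. Its levels were 12.3, 4.90 and 12.7 CPM in the control mice and 4.42, 3.03 and 5.21 CPM in the aPU.1KO mice (chromosome 11, 70453983 to 70459984). Control mouse 2 lay below aPU.1KO mouse 3, which is the only overlap between the groups. Its log2 difference was -1.25 (SE 0.39, edgeR adjusted p = 0.117; 0.0217 by DESeq2), and without control mouse 2 it was -1.57 with an edgeR adjusted p of 0.0173. Without control mouse 1, control mouse 3 or aPU.1KO mouse 2 it was -1.08, -1.05 or -1.06, and the unadjusted edgeR p of 0.0508, 0.054 or 0.0536 was above the threshold. Exons of Cxcl16 share 552 bp with Zmynd15 on the other strand, and the sources used here do not say whether counting used strand. Zmynd15 holds 200 counts over all libraries against 1588 for Cxcl16. It was also lower, at 0.744 to 2.06 CPM in control and 0.254 to 0.568 CPM in aPU.1KO mice (log2 fold change -1.72, edgeR adjusted p = 0.102). A contribution of the shared bases was not tested.

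Cxcl10, which is induced by interferons and is also known as IP-10, was even among control mice and very uneven among aPU.1KO mice. Its levels were 8.76, 8.01 and 7.69 CPM in the control mice and 33.2, 139.2 and 2.65 CPM in the aPU.1KO mice (chromosome 5, 92346638 to 92348889). aPU.1KO mouse 2 was far above and aPU.1KO mouse 3 below every control, so the mean of 58.3 ± 71.7 CPM (SD, n = 3) describes no single aPU.1KO mouse. The log2 difference was 2.84 (SE 1.12, edgeR adjusted p = 0.174). It was 1.13 without aPU.1KO mouse 2, where the standard error was 0.86, and 3.40 without aPU.1KO mouse 3, where it was 0.57 and the edgeR adjusted p was 0.0781. On the log scale of limma-voom the log2 fold change was 1.49 and the unadjusted p was 0.334. By edgeR the unadjusted p was under 0.05 with all mice and without aPU.1KO mouse 3, and it was above 0.05 when each of the other 5 mice was left out in turn. Exons of Cxcl10 share 133 bp with Art3 on the other strand, which was counted at 206.2 to 235.2 CPM in control and 260.7 to 299.2 CPM in aPU.1KO mice.

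Cxcl1, a neutrophil attractant, was counted at 86.9, 96.4 and 79.6 CPM in the control mice and 211.3, 518.7 and 42.0 CPM in the aPU.1KO mice (chromosome 5, 90891241 to 90893115). The order of the aPU.1KO mice was that of Cxcl10, with mouse 2 highest, mouse 1 next and mouse 3 below all controls. The fitted log2 difference was 1.55 (SE 0.75, edgeR adjusted p = 0.245), and no alternative gave an adjusted p under 0.05. It was 0.53 without aPU.1KO mouse 2 and 2.06 without aPU.1KO mouse 3. Of the 31 chemokine and receptor genes tested, 5 had aPU.1KO mouse 2 as the highest and aPU.1KO mouse 3 as the lowest of the 6 mice, a pattern held by 4.34% of all genes tested. They were Cxcl1, Cxcl9, Cxcl10, Ccl2 and Ccl7, and the pattern was chosen after the values were seen.

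**Figure D2:**
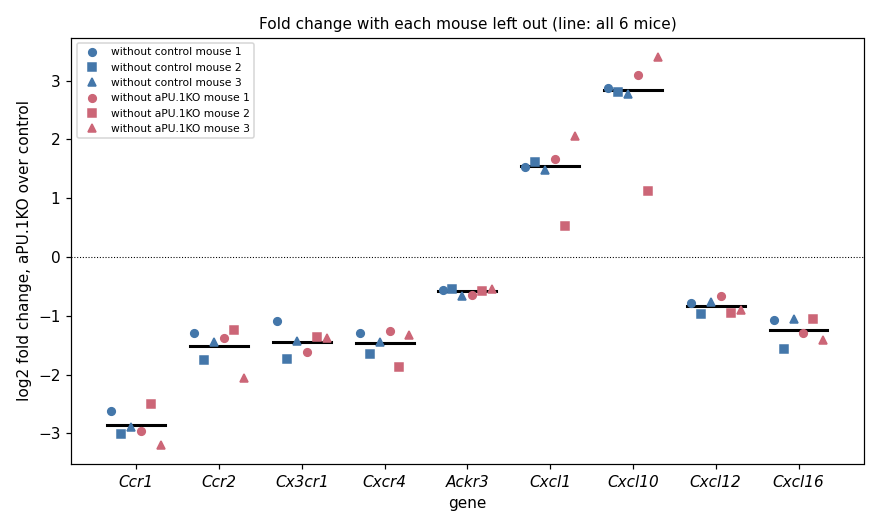
Log2 fold change of each of the 9 genes (aPU.1KO over control, edgeR) with all mice (black line) and with each mouse left out (blue for a control mouse, red for an aPU.1KO mouse, circle, square and triangle for mice 1, 2 and 3). The values of Cxcl1 and Cxcl10 drop to 0.53 and 1.13 without aPU.1KO mouse 2, and those of the other 7 genes stay below 0.

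Levels of the 9 genes can be compared with one another only per length, here as CPM per 1000 bp of merged exons. In the control mice Cxcl1 was the most abundant, at a mean of 46.7 CPM per 1000 bp, followed by Cxcl12 at 18.3, Cxcr4 at 7.73, Ackr3 at 5.14, Cxcl10 at 3.62, Cxcl16 at 3.30, Ccr2 at 2.86, Ccr1 at 1.02 and Cx3cr1 at 0.399. The ranges of Cxcl10, Cxcl16 and Ccr2 overlapped among control mice, while each of the other neighbours in this order was separated in level, Cxcr4 and Ackr3 by only 5.57 against 5.50 CPM per 1000 bp. In the aPU.1KO mice the means were 137.0 CPM per 1000 bp for Cxcl1, 25.9 for Cxcl10, 10.3 for Cxcl12, 3.44 for Ackr3, 2.82 for Cxcr4, 1.40 for Cxcl16, 1.01 for Ccr2, 0.149 for Cx3cr1 and 0.142 for Ccr1. Cxcl10 thus ranked second by its mean, but between mice it ran from 1.18 to 61.8 CPM per 1000 bp. Ccr1 was at the level of Cx3cr1 in aPU.1KO mice and above it in every control mouse.

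The partners of these genes in the chemokine family were read from the same fit. Beside the 9, lists of CXC, CX3C and XC ligands, of chemokine receptors, of atypical receptors and of CC ligands of Ccr1 and Ccr2 hold 41 genes, of which 22 had enough counts to be tested. At an unadjusted p under 0.05, 13 of the 22 were lower and 0 higher in the knockout mice (13.7% and 11.9% of all genes tested), and the median of all 22 was -1.23 on the log2 scale. No gene of these lists passed an adjusted p of 0.05 by edgeR. Of the genes to which DESeq2 gave an adjusted p, it called 5 of 14 CXC, CX3C and XC ligands, 7 of 15 chemokine receptors, 3 of 5 atypical receptors and 5 of 9 CC ligands, all lower, against 11.6% of all such genes. These counts include the 7 described genes that it called, which are 2 of the ligands, 4 of the receptors and 1 of the atypical receptors.

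Among the ligands of Ccr1, Ccl3 was counted at 3.15, 0.876 and 3.45 CPM in control and 0.864, 0.633 and 0.426 CPM in aPU.1KO mice (log2 fold change -1.97, edgeR adjusted p = 0.103). Ccl5 had a log2 fold change of -1.86 (edgeR adjusted p = 0.113), and Ccl6 and Ccl9 had -2.16 and -2.37 (edgeR adjusted p = 0.0764 and 0.0786). In each of these 4 ligands every aPU.1KO mouse was below every control (15.5% of all genes tested). Ccl4 was too low to be tested, with 0.350 to 1.35 CPM in control and 0.0947 to 0.452 CPM in aPU.1KO mice.

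Ccl2, Ccl7, Ccl8 and Ccl12, from the joint list of CC ligands of Ccr1 and Ccr2, did not move together. Ccl2 had 24.1, 25.3 and 21.7 CPM in control mice and 46.6, 120.6 and 7.96 CPM in aPU.1KO mice, the order of mice seen in Cxcl1 and Cxcl10. Its log2 difference was 1.30 (SE 0.79, edgeR adjusted p = 0.339), and it was 0.20 without aPU.1KO mouse 2. By real-time PCR the study reported the other direction, lower Ccl2 in epididymal adipocytes of male aPU.1KO mice. The cause of this difference was not tested. Ccl7 had 22.7, 17.9 and 24.4 CPM against 23.6, 51.1 and 8.38 CPM. Ccl8 was lower in every aPU.1KO mouse, at 6.43, 4.82 and 5.59 CPM against 1.27, 3.03 and 1.56 CPM (log2 fold change -1.52, edgeR adjusted p = 0.0786). Ccl12 was near the limit of counting, with 30, 4 and 3 counts in control and 4, 9 and 2 in aPU.1KO libraries.

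Among the close relatives of the ligands, Cxcl2, which shares the receptor Cxcr2 with Cxcl1, had the same order of aPU.1KO mice, but aPU.1KO mouse 2 was within the range of the controls. It had 53.8, 14.8 and 48.9 CPM in control mice and 14.6, 31.3 and 7.25 CPM in aPU.1KO mice (log2 fold change -1.15, standard error 0.63, edgeR adjusted p = 0.296). Cxcl9, which like Cxcl10 is induced by interferon gamma and binds Cxcr3, had 49.7, 28.1 and 63.8 CPM against 59.0, 149.4 and 25.0 CPM (log2 fold change 0.72, edgeR adjusted p = 0.498). Cxcl11, the remaining ligand of Cxcr3, had only 4 to 14 counts per library and was not tested. Pf4, a CXC chemokine of platelets and macrophages, had a log2 fold change of -1.27, Cxcl14 had -2.32, and Cx3cl1, the ligand of Cx3cr1, had -1.19 with 3.35, 2.45 and 3.73 CPM against 1.32, 2.03 and 0.805 CPM (edgeR adjusted p = 0.0894, 0.112 and 0.113).

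The receptors that match Cxcl1, Cxcl10 and Cxcl16 were scarce in this fraction. Cxcr2 had 0.219 to 0.714 CPM in control and 0.379 to 0.768 CPM in aPU.1KO mice, and the log2 difference was 0.29 (SE 0.50, edgeR adjusted p = 0.743). Cxcr3 had at most 0.331 CPM and Cxcr6 at most 0.289 CPM in any mouse, and neither was tested. Of the other receptors, Ccr7, which guides dendritic cells to lymph nodes, had 46, 12 and 15 counts in control and 2, 2 and 3 counts in aPU.1KO libraries (edgeR log2 fold change -2.36, adjusted p = 0.0722). All of its aPU.1KO libraries are at or under 3 counts, so that this fitted value depends on few reads. Ackr1 and Ccrl2, an atypical receptor and a receptor-like chemerin-binding protein, had log2 fold changes of -1.44 and -1.72 (edgeR adjusted p = 0.102 and 0.0971).

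**Figure D3:**
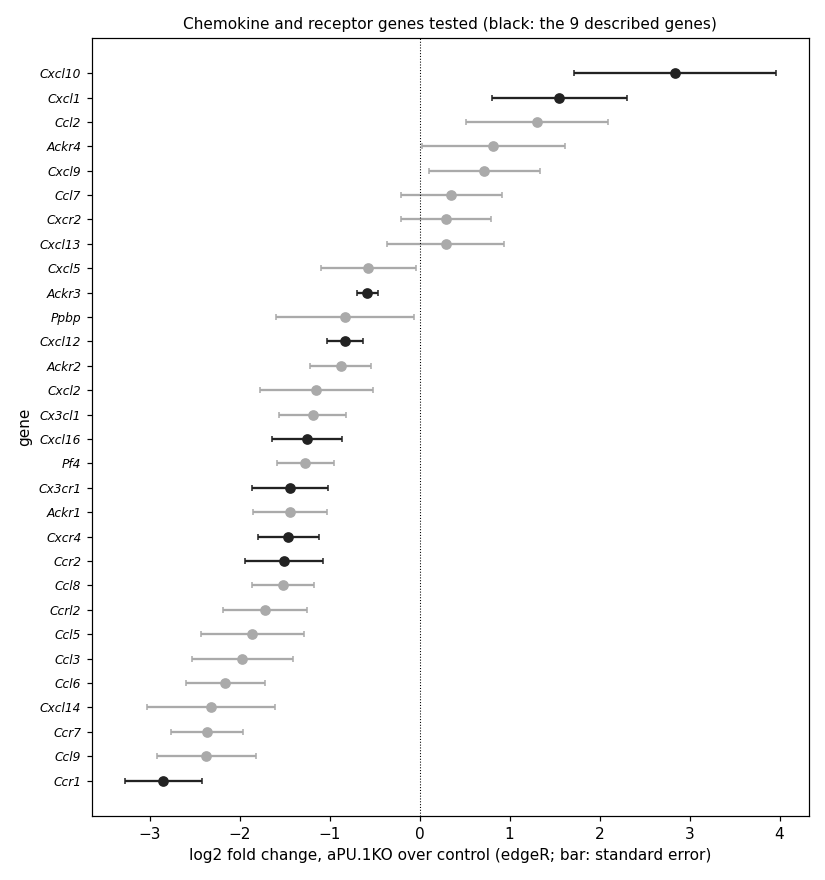
Log2 fold change (aPU.1KO over control, edgeR) with its standard error for 30 chemokine and receptor genes tested, ordered from highest to lowest, with the 9 described genes in black and the rest in gray. Ccr1 is lowest at -2.85 and Cxcl10 highest at 2.84, and the longest error bar among the 9 is that of Cxcl10 at 1.12.

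Downstream of the receptors, a list of G protein signaling, migration and desensitization had 23 genes tested, and 12 of them had an unadjusted p under 0.05, each lower (13.7% of all genes tested were lower and 11.9% higher at that threshold); the median log2 difference was -0.52. Grk5, a kinase that desensitizes G protein-coupled receptors, had 52.2, 45.0 and 46.6 CPM in control and 32.2, 29.0 and 27.3 CPM in aPU.1KO mice (log2 fold change -0.70, standard error 0.10, edgeR adjusted p = 0.0677). The related kinases of the list did not share this difference. Grk2, Grk3 and Grk6 had log2 fold changes of -0.26, -0.11 and 0.16 (edgeR adjusted p = 0.217, 0.687 and 0.419), and their groups overlapped. Dock2, Elmo1 and Rac2, which link chemokine receptors of leukocytes to the cytoskeleton, had log2 fold changes of -2.54, -0.94 and -2.34 (edgeR adjusted p = 0.0786, 0.0783 and 0.0850). Of 12 genes for shedding, cleavage and matrix binding of chemokines, 8 were lower and 0 higher at that threshold, beside the same shares of all genes, with a median of -0.44. Adam10 had 97.3, 81.2 and 94.7 CPM against 72.0, 67.9 and 77.1 CPM, a log2 difference of -0.33 (SE 0.09, edgeR adjusted p = 0.102), and Mmp2, Mmp14 and Sdc3 had -1.51, -1.55 and -1.61 (edgeR adjusted p = 0.0873, 0.0722 and 0.0724).

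Markers of several other cell types moved with the groups, and their part in these results was not tested. Of the 12 macrophage markers, 11 were lower at an unadjusted p under 0.05, the threshold of all marker counts here (13.7% of all genes tested were lower and 11.9% higher), with a median log2 fold change of -2.09, and Mertk was not, at 0.06. Among the 7 progenitor markers 5 were lower and the median log2 difference was -0.95, and their sums were 396.4 to 565.9 CPM in control and 188.7 to 320.6 CPM in aPU.1KO mice. The 7 endothelial markers had a median of -0.53 with 2 lower, with sums of 513.4 to 747.7 CPM and 313.3 to 656.4 CPM, and the 5 mural markers had -0.70 with 3 lower, with 446.2 to 695.8 CPM and 360.6 to 488.1 CPM.

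The remaining leukocyte lists were at low levels, and the same shares of all genes, 13.7% lower and 11.9% higher, stand beside their counts. The 6 monocyte markers summed to 5.12 to 12.3 CPM in control and 3.36 to 4.34 CPM in aPU.1KO mice (2 of 5 tested lower), the 6 T cell markers to 3.15 to 4.48 and 1.47 to 1.67 CPM (2 of 3 tested lower), and the 4 B cell markers to 2.71 to 3.65 and 1.37 to 3.32 CPM (0 of 3 tested lower). The 5 neutrophil markers summed to 18.9 to 38.5 and 10.6 to 18 CPM (2 of 2 tested lower), most of it S100a8. S100a9 had only 0 to 15 counts per library, Ly6g was at or under 3 counts in every library and Retnlg at 0. None of the 5 mesothelial markers passed the same threshold (4.48 to 15.7 and 6.02 to 7.96 CPM). In adipocyte markers 5 of 7 were higher and 1, Lep, was lower. The 7 hepatocyte markers, which adipocytes are not known for, were all lower, with sums of 38.8 to 63.7 and 17.2 to 23.2 CPM.

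**Figure D4:**
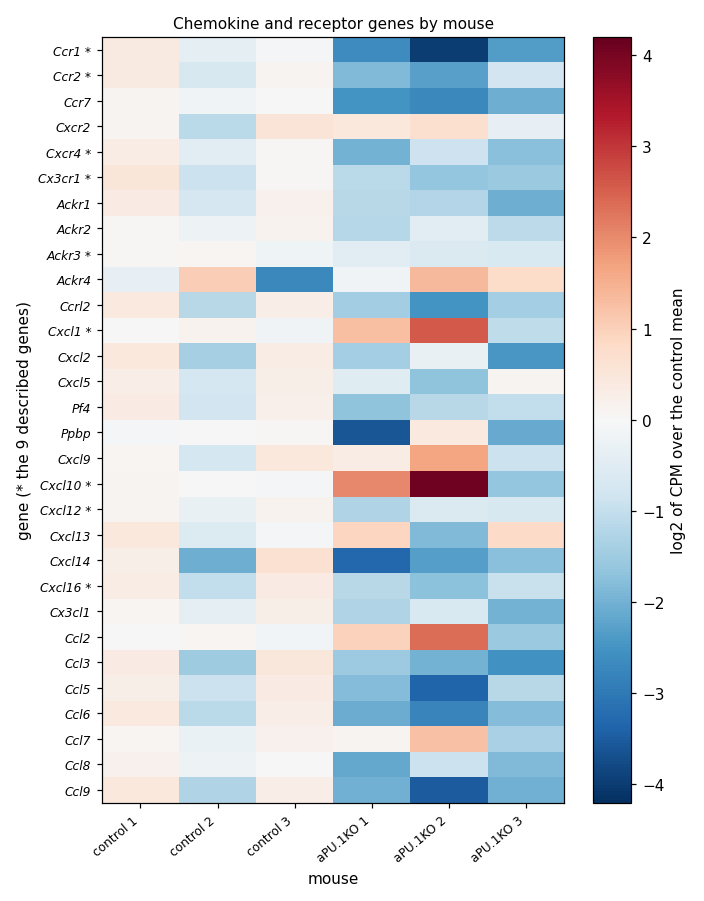
Log2 of CPM over the mean of the control mice for 30 chemokine and receptor genes tested (rows; the 9 described genes carry an asterisk) in each mouse (columns). Values run from -3.99 to 4.09; most aPU.1KO cells are blue (lower), and Cxcl1, Cxcl9, Cxcl10, Ccl2 and Ccl7 are red (higher) in aPU.1KO mouse 2 and blue in aPU.1KO mouse 3.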

How the data were processed

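RNA of the epididymal adipocyte fraction was measured by RNA-seq in 3 control and 3 aPU.1KO mice. The authors deposited expected counts: Salmon (option validateMappings) estimated counts per transcript, which were summed to genes and written as whole numbers, and the submitters' processing notes name GRCm38. The Salmon version, annotation and use of strand are not given in the sources used here. The deposited table holds 35122 genes, of which 35102 matched a symbol in GENCODE M21, the source of coordinates and exon lengths. Unmatched genes hold 0.00188% of all counts. Libraries of a group differed beyond sampling noise (chi-square over degrees of freedom at least 20.4). Numbers 1 to 3 name the mice of each group in sample-list order, and each is a separate animal.

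The test was that of edgeR 4.0.16 under R 4.3.3 (filterByExpr, TMM, glmQLFit, glmQLFTest, two-sided), with Benjamini-Hochberg adjustment over the 13925 genes tested. Standard errors come from the coefficient and its F statistic. Log2 fold changes are aPU.1KO over control. The floor was 3 counts per library. Alternatives were RLE and upper quartile factors, a filter of 10 counts in every library, no filter, DESeq2 1.42.0, limma-voom (limma 3.58.1), robust dispersion, legacy = FALSE, control mouse 1 thinned to the median depth, and leaving out each mouse. In simulated counts edgeR called 89 of 100 genes changed 4-fold, 55 of 98 changed 2-fold and 5 unchanged genes. Sequences are from RefSeq (GRCm38.p6), and transcript identity was found with BLAST 2.17.0. The genes and lists were chosen with earlier results of these data known. Named are the 9 genes, Spi1, their known partners, up to 12 further family genes and up to 4 of each other pathway list by smallest unadjusted p under 0.05. The result for 1 gene of the lists is counted but not reported here.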

Additional observations from a re-analysis of the deposited data

How the results depend on the processing

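Depth limits Ccr1 and Cx3cr1 most, with 4 to 16 counts per aPU.1KO library. The log2 fold changes of the 9 genes kept their direction under all 15 alternatives in which each was tested (134 values), 13 of which newly had an adjusted p under 0.05, under DESeq2, without control mouse 2 or, for Ccr1, with no filter. Of the 9 genes, 7 passed an adjusted p of 0.05 under DESeq2 and 1, Ccr1, with no filter. With 1 mouse left out this number ran from 0 to 5, the 5 without control mouse 2. The number at an unadjusted p under 0.05 ran from 5, without control mouse 1 (12.3% of all genes), to 9, without aPU.1KO mouse 3 (27.4%; 25.7% with all mice). The number without overlap between groups ran from 6 to 9, the 9 without aPU.1KO mouse 3 with Cxcl1 and Cxcl10 higher, where 47.1% of all genes did not overlap in either direction against 32.1% with all mice. Over all genes, 33 were called: 5 with at least 10 counts in every library, 146 with no filter, 1867 under DESeq2, 20 with control mouse 1 thinned, and from 0 (without control mouse 1; 1718 at an unadjusted p under 0.05) to 1193 (without control mouse 2) with 1 mouse left out. Without aPU.1KO mouse 2 the log2 fold changes of Ccl7 and Cxcl9 turned to -0.45 and -0.18, and without control mouse 2 that of Cxcr2 to -0.0174; with single mice left out their highest values were 0.79, 1.14 and 0.60. The cause of these differences was not tested. The filter of 10 counts left Ccr1 untested. No paired analysis was possible because the mouse numbers in the labels are not shared between groups, and the litter of each sequenced mouse is not given in the sources used here.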

Other observations

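Several family members were below the level at which edgeR tested genes. Ccr3, an eosinophil receptor, had 1.18, 0.0438 and 1.59 CPM in the control mice and 0, 0 and 0.0947 CPM in the aPU.1KO mice (DESeq2 adjusted p = 0.0253, with control mouse 2 inside the range of the aPU.1KO mice). Cxcl3, a neighbour of Cxcl1 on chromosome 5, had 0.0438 to 0.119 CPM in control and 0.152 to 0.271 CPM in aPU.1KO mice. Cxcl17 had no count in any library. These genes were named after their values were seen.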
